A study of Mus musculus with 44 samples.

Results

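The IRF3 chromatin immunoprecipitation (ChIP-seq) peaks of wild-type (WT) mouse macrophages were compared between cells treated with lipopolysaccharide (LPS) and untreated cells. The peaks are those of 1 deposited list per condition, 1424 in WT cells with LPS and 1169 in untreated WT cells, which make 2593 of the 15489 peaks in all 8 lists of the series. Peaks of both lists were divided by position: a peak that overlapped a peak of the other list by at least 1 bp was shared, and the others were found with LPS alone or in untreated cells alone.

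The cells were bone marrow-derived macrophages of C57BL/6 mice, grown from whole marrow with 30 ng/ml M-CSF in medium with 10% serum and collected between day 8 and day 10. The WT group with LPS comprised 2 samples that received 10 ng/ml LPS for 6 hours, and the untreated WT group comprised 3 samples. The labels do not say whether samples of a group came from separate mice, and no source used here gives the age of the mice. Other lists of the series came from Dnmt3a knockout (KO) macrophages and from an NF-kB antibody, and they serve here only as positions to look up. Both WT groups share genotype, strain, culture and antibody. Each list merges its group's samples, so no value has a spread between samples and no difference between conditions was tested. Intervals in parentheses are exact (Clopper-Pearson) 95% binomial intervals, which cover counting error only. The lists hold no expression values, so neither the cell type nor the response to LPS could be checked with marker genes. No source used here gives the read depth.

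LPS, a component of the bacterial outer membrane, is sensed by Toll-like receptor 4. One arm of that pathway runs through the adaptor TRIF to the kinase TBK1, which phosphorylates the transcription factor IRF3. Phosphorylated IRF3 dimerises, enters the nucleus and, with coactivators, switches on the interferon beta gene Ifnb1 and antiviral genes. It recognises repeated GAAA units, as in the interferon-stimulated response element (ISRE).

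The promoters of 4 classical targets are shown because they carry this recognition sequence and lay far from every WT IRF3 peak. They are the 250 bases before the annotated start in RefSeq (GRCm38.p6, the assembly named mm10), written 5′ to 3′ on the gene's strand. Capitals mark the ISRE core, 2 GAAA units with 2 bases of any kind between them, or the wider spacing with 3 bases between them, searched on both strands, where neighbouring matches may overlap. Ifit1 encodes an antiviral RNA-binding protein (chr19:34640639-34640888, plus strand), Isg15 a ubiquitin-like modifier (chr4:156200819-156201068, minus strand), Cxcl10 a chemokine (chr5:92348890-92349139, minus strand) and Ifnb1 interferon beta (chr4:88522795-88523044, minus strand).
Ifit1: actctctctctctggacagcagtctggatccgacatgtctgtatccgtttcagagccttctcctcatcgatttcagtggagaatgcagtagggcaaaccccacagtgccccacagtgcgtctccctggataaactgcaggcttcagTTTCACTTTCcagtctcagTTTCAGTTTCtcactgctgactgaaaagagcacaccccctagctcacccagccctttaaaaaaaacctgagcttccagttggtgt
Isg15: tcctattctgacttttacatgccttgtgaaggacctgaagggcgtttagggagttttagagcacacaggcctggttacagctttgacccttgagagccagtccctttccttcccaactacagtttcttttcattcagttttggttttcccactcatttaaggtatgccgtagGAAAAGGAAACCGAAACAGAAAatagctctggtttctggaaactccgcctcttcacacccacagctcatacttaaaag
Cxcl10: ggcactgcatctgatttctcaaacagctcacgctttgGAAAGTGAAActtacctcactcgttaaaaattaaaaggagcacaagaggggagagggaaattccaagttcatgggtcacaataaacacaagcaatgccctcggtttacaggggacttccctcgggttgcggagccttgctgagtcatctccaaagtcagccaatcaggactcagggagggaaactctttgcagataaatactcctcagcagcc
Ifnb1: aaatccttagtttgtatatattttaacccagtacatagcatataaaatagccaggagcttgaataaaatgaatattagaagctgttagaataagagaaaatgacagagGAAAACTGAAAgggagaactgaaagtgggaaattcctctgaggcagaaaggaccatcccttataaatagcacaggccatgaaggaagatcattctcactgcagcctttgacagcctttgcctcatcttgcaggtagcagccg

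The promoters of Gm21083 (chr5:15577043-15577292, plus strand), a predicted gene, and Vmn2r121 (chrX:124135911-124136160, minus strand), a vomeronasal pheromone receptor gene, are shown in the same way because a peak found with LPS alone overlapped them. They are the only protein-coding genes of which this was true, and neither sequence holds either motif.
Gm21083: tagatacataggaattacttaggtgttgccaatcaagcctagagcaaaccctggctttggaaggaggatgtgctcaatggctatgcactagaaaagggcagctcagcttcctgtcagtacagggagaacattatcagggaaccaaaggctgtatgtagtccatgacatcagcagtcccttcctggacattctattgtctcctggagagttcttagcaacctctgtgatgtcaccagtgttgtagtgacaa
Vmn2r121: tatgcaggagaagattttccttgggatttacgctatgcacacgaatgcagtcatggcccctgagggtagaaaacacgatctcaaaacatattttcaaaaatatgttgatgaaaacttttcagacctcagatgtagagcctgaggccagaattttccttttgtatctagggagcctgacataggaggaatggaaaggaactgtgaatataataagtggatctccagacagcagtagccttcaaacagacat

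The first question was whether IRF3 peaks appeared at interferon genes after LPS. None of the 54 matched interferon and IRF3 target genes had a peak within 10 kb, either with LPS or in untreated cells (0 to 6.60% for each). Over all 21887 protein-coding genes the share with such a peak was also low, 2.2% for the list with LPS and 1.67% for the untreated list. It was 1.27% for peaks found with LPS alone and 0.74% for peaks found in untreated cells alone. Read against the 2.2% background, a count of 0 among 54 genes is not a result about interferon genes in particular.

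All the classical targets measured lay over 100 kb from the nearest peak. For Ifnb1 the distance from the gene was 1196.6 kb to the list with LPS and 2045.7 kb to the untreated list. For Ifit1 it was 1254.2 and 2648.9 kb, and for Cxcl10 1154.5 and 1238.1 kb, in the same order. Ccl5, which encodes another chemokine, was 6435.2 kb from a peak with LPS and 1381.5 kb from an untreated one. Irf7, which encodes the factor that amplifies the interferon response, was 372.1 kb from a peak with LPS and 4392.7 kb from an untreated one. Isg15 and the antiviral gene Rsad2 were nearest to peaks that both conditions share: for Isg15 a peak 139.7 kb away in both lists, and for Rsad2 one 393.2 kb away with LPS and 393.1 kb away in untreated cells. The Mx1 gene is annotated as a pseudogene in this assembly and was not among the genes measured.

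Across the 54 genes the median distance to the nearest peak was 1197.8 kb for the list with LPS and 1280.6 kb for the untreated list. The same medians over all protein-coding genes were 932.8 and 1281.4 kb. The member nearest to a peak with LPS was Ifi44, an interferon-induced gene, 51.4 kb from a peak with LPS and 4266.5 kb from an untreated one. Trim25, which encodes a ubiquitin ligase of RNA sensing, showed the opposite, 945.4 kb with LPS and 32.4 kb untreated.

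**Figure D1:**
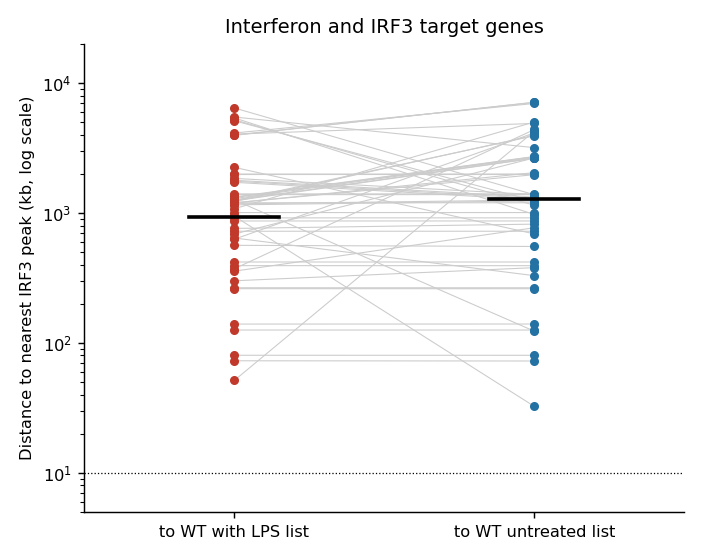
Distance in kb (log scale) from each of 54 interferon and IRF3 target genes to the nearest WT IRF3 peak, in the list with LPS (left) and the untreated list (right); grey lines join the same gene, black bars are medians over all 21887 protein-coding genes and the dotted line is 10 kb. Every gene lies above the 10 kb line, with the lowest at 51.4 kb for the list with LPS and 32.4 kb for the untreated list.

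Other gene lists were read against the same background, 2.2% of all protein-coding genes with a peak within 10 kb with LPS and 1.67% in untreated cells. None of the 32 genes of signalling from Toll-like receptor 4 to IRF3, among them Tlr4, Ticam1 (which encodes TRIF), Tbk1 and Irf3 itself, had a WT IRF3 peak within 10 kb in either condition. None of the 50 inflammatory NF-kB targets had one. Of the 30 immediate early and stress genes, 2 had a peak with LPS and 1 had a peak in untreated cells. Of the 32 macrophage identity genes, 1 had a peak in both lists, and of the 14 genes of the DNA methylation machinery, 1 had a peak with LPS and none in untreated cells. No marker of T cells, B cells, neutrophils, dendritic cells, erythroid cells or stromal cells had one. In lists of this size, counts of 0 to 2 are near the background and are not a result about any of these lists.

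The members with a peak were Cdkn1a, Dusp5, Fcgr1 and Dnmt3b. Cdkn1a encodes the cell cycle inhibitor p21 and had a pair of wide peaks in both conditions, all beyond the far end of the gene on chromosome 17. With LPS they spanned 3058 bp (29105796 to 29108853, rank 5 of 1424) and 2155 bp (29101822 to 29103976, rank 18). In untreated cells they spanned 4602 bp (29104309 to 29108910, rank 19 of 1169) and 2417 bp (29101608 to 29104024, rank 97). The wider peak overlapped a peak in all 6 other lists, and the narrower one with LPS in 5 of them, all but the KO IRF3 list with LPS. The KO peak with LPS begins at 29103994, just beyond the end of that narrower peak. It overlapped the narrower untreated peak, which was in all 6 other lists.

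Dusp5 encodes a phosphatase that inactivates ERK and had a peak of 2147 bp with LPS, 3505 bp from the gene and ranked 866 of 1424, and none in untreated cells. The same position was listed in all 6 other lists of the series, including untreated KO cells and untreated WT cells with the NF-kB antibody. Fcgr1, which encodes the high-affinity Fc receptor CD64, had a peak 9983 bp away with LPS (rank 126) and 9718 bp away in untreated cells (rank 254 of 1169). That peak lies nearer to the histone gene H2bc18, 586 bp from it with LPS and 265 bp in untreated cells. Dnmt3b, which encodes a de novo DNA methyltransferase, had a narrow peak of 394 bp found with LPS alone, 3868 bp from the gene on chromosome 2 (153691599 to 153691992). It ranked 1237 of 1424 with a deposited q-value of 0.902, and of the 6 other lists the KO list with LPS and the IRF3 antibody alone held it.

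Hardly any peak reached a promoter. Of 32851 promoter windows of 300 bases from RefSeq (250 before and 50 after an annotated start, for 27025 genes, none on chromosome 18), 8 were overlapped by a peak with LPS (0.0244%) and 6 by a peak in untreated cells (0.0183%). Together these were 12 windows, and 2 of them were overlapped in both conditions, those of the non-coding genes Gm36816 and Gm46074. Peaks found with LPS alone overlapped the windows of Gm21083 and Vmn2r121 and of the non-coding genes Gm30613, Gm51701 and Gm5636, and a shared peak reached the window of the non-coding gene Gm52195 in the list with LPS. Peaks found in untreated cells alone overlapped the windows of the protein-coding genes Gm38704, Elobl and LOC115488002 and of the non-coding gene Gm38579. None of these belongs to the interferon list.

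The sequence features of these windows were described in the 250 bases before each start. At Gm52195 and Gm30613 the peak reached only the 50 bases after the start, so the searched sequence lay outside it. The ISRE core was present in 22 of 48 windows of interferon and IRF3 targets (45.8%, 31.4 to 60.8%), in 978 of all 32851 windows (2.98%) and in 0 of the 12 windows with a peak (0 to 26.5%). The wider spacing was present in 7 of the 48 (14.6%), in 783 of all windows (2.38%) and in 0 of the 12. Among other motifs, TGANTCA (AP-1) and GAGGAAG (PU.1, the macrophage lineage factor) were in 6.75 and 10.6% of all windows and in none of the 12. The NF-kB core (GGG, 2 bases of any kind, TTTCC) was in 1.41% of all windows and in 1 of the 12. A match is a description of letters, not of binding, and 12 windows are too few to read a share from.

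Some windows with a peak shared sequence with windows of other genes. An identical run of 50 bases in the window of another gene was found for 6 of the 8 windows with a peak after LPS (34.9 to 96.8%), 2 of the 6 in untreated cells (4.33 to 77.7%) and 7.86% of all windows. The Gm21083 window shared such a run with windows of 20 other genes and the Vmn2r121 window with 3. Reads from such a run match several places, and no source used here says how the authors treated them.

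The second question was how far the condition changed the list. With LPS, 767 of 1424 peaks were found with LPS alone (53.9%, 51.2 to 56.5%), and in untreated cells 527 of 1169 were found there alone (45.1%, 42.2 to 48.0%). Both lists together formed 1881 separate regions. The lists merge 2 samples with LPS and 3 without, and this difference cannot be told apart from that of the treatment in the lengths of the lists.

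What the conditions shared depended on rank. Peaks were ranked within each list by the authors' deposited p-value. In the best-ranked 10% of each list, 139 of 143 peaks with LPS were also listed in untreated cells (97.2%, 93.0 to 99.2%), and 116 of 117 untreated peaks were also listed with LPS (99.1%, 95.3 to 99.98%). In the last 10% the shares were 18.2% (12.2 to 25.5%) with LPS and 16.2% (10.1 to 24.2%) in untreated cells. Only 4 peaks found with LPS alone, and 4 found in untreated cells alone, had a deposited q-value under 0.05, against 138 and 180 shared peaks in those lists.

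**Figure D2:**
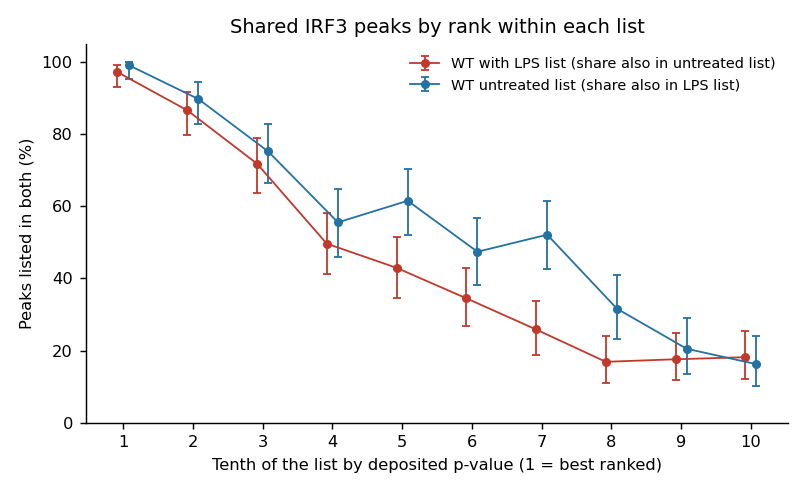
Share of peaks listed in both WT conditions (%, with exact 95% intervals) by steps of 10% of each list, ranked by deposited p-value; red is the list with LPS and blue the untreated list. The share is 97.2% with LPS and 99.1% untreated in the first step and 18.2 and 16.2% in the last.

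Shared peaks were also the wide ones, and rank and width went together. The median width was 2501 bp in the best-ranked 10% of the list with LPS and 673 bp in the last 10%. In the untreated list it was 2672 and 557 bp. The shares by rank and by width were not separated here. With LPS, 88.6% (84.2 to 92.1%) of peaks of 2000 bp and over were shared, against 15.5% (11.1 to 20.8%) of peaks under 500 bp. In untreated cells the shares were 91.4% (87.3 to 94.6%) and 13.2% (8.91 to 18.7%). Peaks under 500 bp, the size nearest to the sheared fragments of 100 to 300 bp, made up 25.6% (22.5 to 28.8%) of peaks found with LPS alone and 33.6% (29.6 to 37.8%) of those found in untreated cells alone. They made up 5.48% of shared peaks in the list with LPS and 4.21% in the untreated list. Shared peaks covered 1329786 bp in the list with LPS, while peaks found with LPS alone covered 766014 bp and those found in untreated cells alone 473553 bp.

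**Figure D3:**
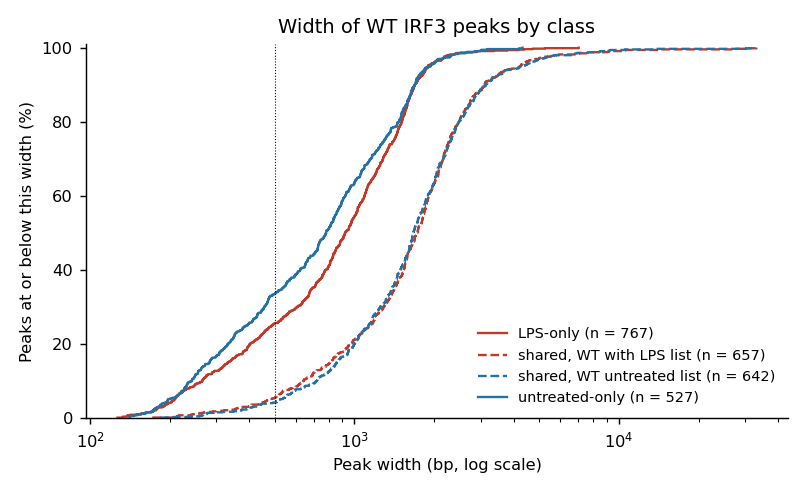
Cumulative share of peaks (%) by width (bp, log scale) for peaks found with LPS alone, shared peaks in either list and peaks found in untreated cells alone; the dotted line is 500 bp. The curves of both shared classes lie to the right, and 25.6% of peaks found with LPS alone and 33.6% found in untreated cells alone fall under 500 bp.

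The authors' signal value, a score without a stated normalization, followed the same order within each list. With LPS its median was 9.48 for peaks found with LPS alone and 12.8 for shared peaks. In untreated cells it was 9.35 for peaks found there alone and 12.3 for shared peaks. Most positions in 1 condition alone were distant from any peak of the other rather than at its edge. Only 10 of the 767 peaks found with LPS alone lay within 500 bp of an untreated peak and 77 (10.0%) within 10 kb. For peaks found in untreated cells alone, 15 of 527 lay within 500 bp of a peak with LPS and 83 (15.7%) within 10 kb.

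The 3 best-ranked peaks with LPS were shared. The top peak with LPS spanned 272 bp on chromosome 4 (64497779 to 64498050), with no protein-coding gene within 100 kb, and ranked second in untreated cells at 265 bp. Next came a peak of 322 bp inside Itgb5, which encodes the integrin beta 5 subunit (chromosome 16, 33849221 to 33849542). It spanned 408 bp and ranked 3 in untreated cells. The Itgb5 position was listed in all 4 IRF3 lists and in none of the 4 NF-kB lists, which held for only 1 other shared peak in the list with LPS, near the olfactory receptor gene Olfr1055 (209 bp, rank 182). Near 4932411N23Rik on chromosome X the widest peak spanned 32930 bp with LPS and 33115 bp in untreated cells.

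Other well-ranked shared peaks with LPS lay near 9230019H11Rik, Gm21119, Cntn1 (a neural adhesion gene), the vomeronasal receptor gene Vmn1r2, the zinc finger gene Zfp763 and Sfi1 (a centrosome gene). A further one lay inside Arhgap24. In untreated cells the leading shared peaks also included ones near the vomeronasal receptor genes Vmn1r157 and Vmn2r129, the X-linked gene Mageb5, Gm15319 and Gm17019. Of the leading shared peaks named in this paragraph, all but the one near Gm17019 were listed in all 8 lists.

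The peaks found with LPS alone were led by positions known from other lists. The best, ranked 17 of 1424 with a q-value of 0.00258, lay 10095 bp from Gm39469 on chromosome 9 (124256538 to 124257788). It was listed in all 6 other lists, although the nearest untreated WT IRF3 peak was 6163764 bp away. Those near Smgc (a salivary gland gene), Orc5 (a subunit of the origin recognition complex), Epb41l3 (a cytoskeletal linker gene) and Tbx18 (a T-box factor gene), and the one inside 4930444P10Rik, were also in all 6. Of the remaining 4, the one inside Dlgap2 was in 4 other lists and those inside Sfi1 and Zfand3 and near Gm40035 were in 2. The peak inside Zfand3 (726 bp, rank 234) was in both NF-kB lists with LPS and in no untreated list. Of the 4 peaks with a q-value under 0.05, those not yet named lay over 100 kb from a protein-coding gene, at ranks 27 and 41; the first was in both KO IRF3 lists alone and the second in all 4 NF-kB lists. In untreated cells alone, the leading peaks near Cemip2 (a hyaluronidase-like gene), Spin2g, Mup20 (a major urinary protein gene) and Mroh9 were likewise in all 6 other lists. Those near Gm21977 and Gm14147 were in 5 and the one inside E030030I06Rik in 2. The one inside Tbc1d5 (a regulator of vesicle traffic) was in 1. Such leading peaks do not stand for their whole class. Over the full class, 90 of 767 peaks with LPS alone overlapped all 6 other lists (11.7%, 9.54 to 14.2%). For untreated cells alone this held for 40 of 527 (7.59%, 5.48 to 10.2%). Among shared peaks in the list with LPS it held for 372 of 657 (56.6%, 52.7 to 60.4%).

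2 of the 10 leading positions in untreated cells alone were in no other list, near Speer4c and inside Neat1. Neat1 is a long non-coding RNA that scaffolds nuclear paraspeckles. Its untreated peak had a signal value of 47.0, the highest of the untreated list, and spanned 569 bp on chromosome 19 (5837154 to 5837722, rank 214 of 1169). With LPS a peak of 346 bp (5836803 to 5837148, rank 346 of 1424, signal value 15.4) lay 5 bp from it. By the rule of 1 bp overlap these count as a peak found with LPS alone and a peak found in untreated cells alone, although they lie side by side. Other IRF3 and NF-kB lists held peaks at further, different positions of the gene, which was singled out after its values were seen.

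**Figure D4:**
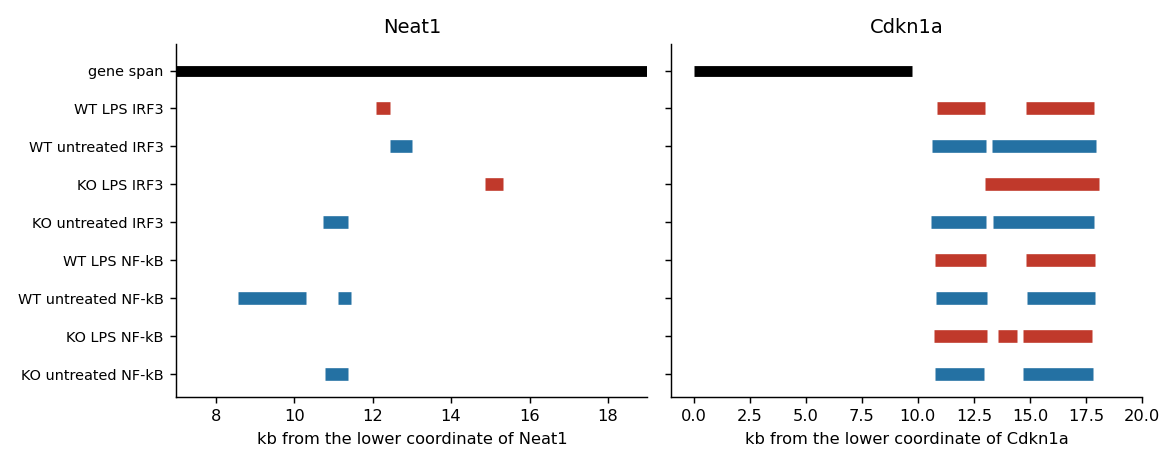
Peaks of all 8 lists at Neat1 and Cdkn1a, in kb from the lower coordinate of each gene; the black bar is the gene span, red bars are lists with LPS and blue bars untreated lists. At Neat1 the WT IRF3 peaks with LPS (346 bp) and untreated (569 bp) lie 5 bp apart. At Cdkn1a every list has a peak over the wider position beyond the gene. The KO IRF3 list with LPS has no separate peak at the narrower position. Its wide peak overlaps the narrower untreated WT peak but not the narrower WT peak with LPS.

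Peaks close to gene ends were few in both conditions. Of peaks found with LPS alone, 15 of 767 lay within 1 kb of an end of a protein-coding gene (1.96%, 1.10 to 3.21%), against 18 of 527 found in untreated cells alone (3.42%, 2.04 to 5.34%). Shared peaks lay between these shares, 17 of 657 in the list with LPS (2.59%) and 17 of 642 in the untreated list (2.65%). With LPS alone the best ranked lay at Zfp706, Gm21297, Dcaf8l, Mill2 (an MHC class I-like gene), Gm17019, Sp110, Gm5662, Setd4 (a methyltransferase gene), Vmn2r39 and Gm7592. Sp110 encodes an interferon-inducible nuclear body protein, and its peak of 484 bp (chromosome 1, 85586555 to 85587038) ranked 1022 with a q-value of 0.782. In untreated cells alone they lay at Gm3993, Gm10354, Gm10476, Gm21190, Vmn1r152, Obox2 (an oocyte homeobox gene), Zfp978, LOC115488002, Mucl2 and Gm21149. The best of these 20 peaks ranked 516 with LPS and 266 in untreated cells.

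Peaks overlapped a protein-coding gene span in 28.2% of those found with LPS alone, 24.8% of shared peaks in the list with LPS and 28.8% of those found in untreated cells alone. The median distance to a protein-coding gene was 29647, 31119 and 26404 bp in the same order. Chromosome X held 79 of 767, 72 of 657 and 53 of 527 peaks, while it makes up 6.27% of the annotated length. Chromosome 5, with 5.57% of that length, held 10.2% (8.12 to 12.5%), 8.37% (6.37 to 10.8%) and 12.9% (10.2 to 16.1%).

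Many chromosome 5 peaks lay at the Speer genes, a family of testis-expressed genes present in many similar copies. Between positions 15461969 and 15712188, the list with LPS held 32 peaks, of which 9 were shared, and the untreated list held 31 in nearly the same span, of which 10 were shared. A second run between 14903333 and 15054998 held 17 peaks with LPS and 22 in untreated cells. Further runs lay at Sfi1 on chromosome 11, with 9 peaks with LPS and 14 in untreated cells, and at zinc finger genes on chromosome 4. At Sp110 and Sp140, which encode nuclear body proteins, a run of 4 peaks was present in untreated cells and none of them was shared. In all, 107 peaks with LPS and 120 peaks in untreated cells lay in 12 runs each, a run being at least 4 peaks of a list with gaps of at most 50 kb. Of these, 44 with LPS and 42 in untreated cells were shared.

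Genes were also grouped by the prefix of their names, and the 5 prefixes with over 100 protein-coding genes, a limit set after the counts were seen, are given here. Zinc finger genes (Zfp), 1.81% of protein-coding genes, were nearest to 3.52% of peaks found with LPS alone, 3.20% of shared peaks in the list with LPS and 5.88% of peaks found in untreated cells alone. Predicted genes (Gm), which are not a family, make up 6.07% of genes and were nearest to 10.2, 11.1 and 15.2% of peaks in the same order. Olfactory receptor genes (Olfr), 5.07% of genes, were nearest to 2.35, 2.59 and 1.52%. Vomeronasal receptor genes were nearest to 0.261, 3.20 and 0.759% for Vmn1r, with 1.06% of genes, and to 0.782, 0.913 and 0.759% for Vmn2r, with 0.567% of genes. These shares count peaks, and several peaks can lie at 1 locus. For Zfp, the chromosome 4 runs included 1 at Zfp992 with 6 peaks with LPS, 5 of them not shared. Another, at Zfp978, held 9 untreated peaks, 8 of them not shared.

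The third question was whether positions found with LPS alone recurred with LPS elsewhere. Of the 767 peaks, 319 were in the KO list with LPS (41.6%, 38.1 to 45.2%) and 317 in the untreated KO list (41.3%, 37.8 to 44.9%). A gain in both genotypes, listed in KO with LPS and absent from untreated KO, held for 94 (12.3%, 10.0 to 14.8%). The reverse in KO, listed in untreated cells and absent with LPS, held for 92 (12.0%, 9.78 to 14.5%). The intervals of both shares overlap. A gain with LPS in KO also held for 55 of the 527 WT peaks found in untreated cells alone (10.4%, 7.96 to 13.4%). It held for 39 of the 657 shared peaks in the list with LPS (5.94%, 4.25 to 8.03%). The 94 thus do not set peaks found with LPS alone apart from those found in untreated cells alone.

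The 10 best-ranked of the 94 lay inside Dlgap2 (a synaptic scaffold gene), Net1, Scn2a (a sodium channel gene), Spock3 (a proteoglycan gene) and Mpdz (a scaffold gene). Others lay near Med10 (a Mediator subunit gene, with 2 peaks), near Efr3a, and more than 100 kb from Slc10a2 and Olfm4. Their ranks were 236 to 404 of 1424, and all 10 were listed in an untreated NF-kB list of WT or KO cells.

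The positions were also looked up in the lists of the NF-kB antibody. Of the 767 peaks found with LPS alone, 384 were in the WT NF-kB list with LPS (50.1%, 46.5 to 53.7%) and 223 in the untreated WT NF-kB list (29.1%, 25.9 to 32.4%). Those lists hold 2494 and 1462 peaks, so the shares also reflect their length. In KO, 335 were in the NF-kB list with LPS (43.7%) and 396 in the untreated one (51.6%), which hold 2376 and 3065 peaks. For the 527 peaks found in untreated cells alone the WT shares were 33.6% with LPS and 28.5% untreated, and the KO shares 33.0 and 38.5%. In the WT NF-kB list with LPS and not the untreated one were 211 of the 767 (27.5%, 24.4 to 30.8%). The reverse held for 50 (6.52%). Of the 527, these counts were 83 (15.7%, 12.7 to 19.1%) and 56 (10.6%). Of the 657 shared peaks in the list with LPS they were 98 (14.9%) and 31 (4.72%). Why the shares differ between the classes was not tested.

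**Figure D5:**
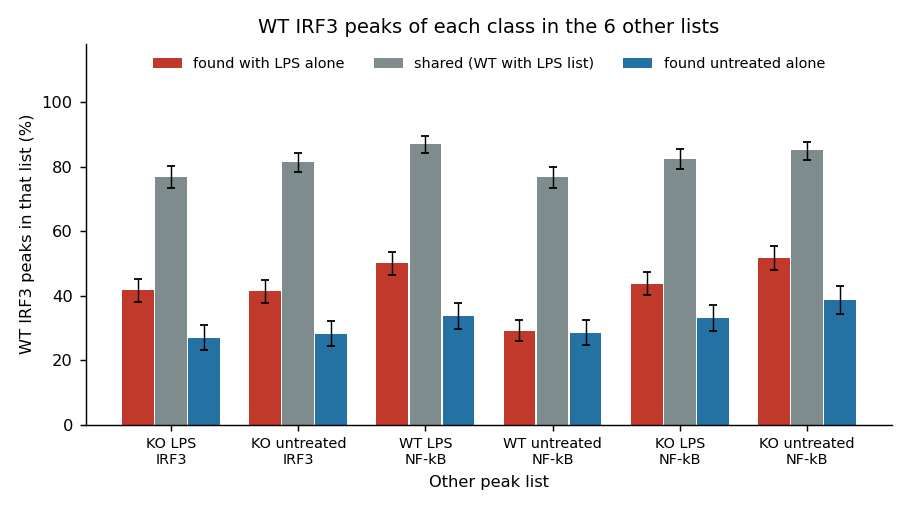
Share of WT IRF3 peaks (%, with exact 95% intervals) that overlap each of the 6 other lists, for peaks found with LPS alone, shared peaks and peaks found in untreated cells alone. Shared peaks stand at 76.7 to 86.9% in every list, peaks found with LPS alone at 29.1 to 51.6% and peaks found in untreated cells alone at 26.9 to 38.5%.

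Counted over all lists, 490 of the 767 peaks found with LPS alone (63.9%, 60.4 to 67.3%) were present in at least 1 other untreated list, and 496 (64.7%, 61.2 to 68.1%) in at least 1 other list with LPS. In another list with LPS and no untreated list were 86 (11.2%, 9.07 to 13.7%), in another untreated list and no other list with LPS were 80 (10.4%, 8.36 to 12.8%), and 191 (24.9%, 21.9 to 28.1%) were in no other list. In all 4 lists with LPS and no untreated list were 3 peaks, against 4 in all 3 other untreated lists and no other list with LPS. The 3 peaks stood at ranks 488, 1149 and 1198. The last 2 lay near Btbd35f22 and Olfr834, and the first was 123286 bp from Pard3b, a cell polarity gene. Of the 527 peaks found in untreated cells alone, 5 were in all 4 untreated lists and no list with LPS, against 6 in all 3 other lists with LPS and no other untreated list. The 5 peaks ranked 323 to 893 of 1169; 3 lay inside Vps13b, Dnajc27 and Nkain2, 1 near B3galnt2 and 1 lay 758871 bp from Fat3.

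Most narrow peaks were in no other list. Of the 196 peaks under 500 bp found with LPS alone, 121 were in no other list (61.7%, 54.5 to 68.6%), and of the 177 found in untreated cells alone 135 were in no other list (76.3%, 69.3 to 82.3%). The KO list with LPS held 28 of the 196 (14.3%) and the untreated KO list 25 (12.8%).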

How the data were processed

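Chromatin of WT macrophages was precipitated with an IRF3 antibody in 2 samples with LPS and 3 untreated samples. Per the labels, the samples of a group point to 1 deposited peak list. Per the submitters' processing notes, the build is mm10, and MACS2 2.1.1 and HOMER 4.9 are among the tools named, with no role given for each. The aligner, thresholds, the treatment of reads that match several places and the way samples were merged are stated in no source used here. The lists have no header, and columns were read in the order of the narrowPeak format. The deposited score column and the deposited signal value are scores without a stated normalization. The deposited p-values and q-values are the authors' own. All of them served only to rank or describe peaks within a list. The list names hold the word chipr, which may refer to a program that combines samples by rank. If so, the p-values describe that combination.

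Overlaps, distances (bases between a peak and a gene span) and intervals were computed with Python 3.11.15, pandas 2.3.3, NumPy 2.4.6 and SciPy 1.17.1, and counting was tested on simulated intervals. Gene spans and promoters came from RefSeq on GRCm38.p6. Of 270 listed symbols, 265 matched a protein-coding gene. Members, lists and rules were chosen with earlier results of these data known. Named genes are those nearest to the 10 best-ranked peaks of each class within 100 kb, the 10 best near gene ends, the 10 best found with LPS alone in WT and KO, list members within 10 kb, and 8 classical targets. Input libraries were not analysed here.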

Additional observations from a re-analysis of the deposited data

How the results depend on the processing

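The share of WT peaks with LPS that were also listed in untreated cells was 46.1%, and the share of untreated peaks also listed with LPS was 54.9%. Of the peaks found with LPS alone, 41.6% were in the KO IRF3 list with LPS and 50.1% in the WT NF-kB list with LPS. These 4 shares were, in that order, 66.2, 51.1, 87.5 and 91.7% with a deposited q-value under 0.05 in both WT lists, where 48 peaks were then found with LPS alone. At equal list length they were 52.4, 51.5, 46.8 and 54.3%. With peaks under 500 bp in both WT lists they were 6.90, 8.33, 14.8 and 23.1%, and with an overlap of at least 50% of both peaks 39.4, 48.0, 33.0 and 39.5%. Without the 360 regions present in all 8 lists, the first 2 shares were 26.7 and 34.2%, and the others stayed within their intervals. By definition those regions hold peaks of both WT lists. They held 378 of the 657 shared peaks with LPS and 1 of the 767 peaks found with LPS alone. Leaving them out thus had to lower the first 2 shares and could hardly move the others. The filters applied to the WT lists, and the list looked up was kept whole. Counting peaks up to 500 bp apart as shared, and, chosen after seeing the data, joining touching peaks or leaving out runs of peaks, kept every share computed within its interval. Why the shares moved in the other settings was not tested. The count of 0 interferon and IRF3 targets within 10 kb with LPS was also 0 at 50 kb. Of all protein-coding genes, 5.05% had a peak with LPS within 50 kb. At 100 kb the count was 3 of 54, against 8.51% of all protein-coding genes. A distance of 1 kb, a q-value under 0.05 or removal of the recurrent regions could only return 0. Each of these settings keeps a part of the peaks or distance that already gave 0.

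No paired analysis was possible because each deposited list merges the samples of its group, so no value carries a replicate number. For the same reason no value exists with a sample left out. Without read depth, a position absent from a list cannot be told apart from one that was not detectable.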

Other observations

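The widest peak found with LPS alone spanned 7046 bp on chromosome 13 (119595942 to 119602987), overlapped Tmem267 and ranked 558 of 1424. A shared peak of the same width to the base, near 9230019H11Rik on chromosome 10 (3109714 to 3116759), ranked 4. In untreated cells the chromosome 10 peak spanned 6946 bp, and no peak overlapped the chromosome 13 position, which was listed in all 6 other lists. Both were noticed after their values were seen.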
